A study of Homo sapiens with 27 samples.

Results

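The 32 genes described here act in the oxidation of fatty acids and in the metabolism of ketone bodies. They were listed by name, and all 32 were found among the 60619 gene rows of the deposited count table by matching Ensembl identifiers to GENCODE v44 symbols. RNA-Seq of MM134 (MDA-MB-134VI) and SUM44 (SUM44PE), cell lines of human invasive lobular breast carcinoma that express estrogen receptor, compared parental cells with variants grown in long-term estrogen deprivation (LTED), a laboratory model of resistance to aromatase inhibitors. The 9 groups of 3 libraries each were MM134 parental cells, MM134 variants named LTED-A, -B, -D and -E, the parental cultures SUM44F and SUM44PE, and SUM44 variants named LTED-A and -B. Parental cells had been deprived of hormone for 3 days before collection, whereas the LTED variants were clones that had emerged over months of growth in medium with charcoal-stripped serum. Charcoal stripping removes other lipophilic compounds from serum along with estradiol. The variants were also kept in a basal medium other than the usual one of MM134 and SUM44F parental cells. Long growth without estrogen, in stripped serum and in that basal medium cannot be told apart in these comparisons. SUM44F is SUM44PE adapted to medium with fetal bovine serum and was the parental culture of the SUM44 variants. The variants of a line share its parental libraries, replicates were wells seeded in parallel, and nothing in the sources places them in separate cultures, so p-values measure only the spread between these libraries.

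Mitochondrial beta-oxidation shortens a fatty acid by a 2-carbon acetyl-CoA in each turn of a spiral. Long chains enter mitochondria through the carnitine shuttle, acyl-CoA dehydrogenases start each turn and pass their electrons through electron transfer flavoprotein to ubiquinone, and a hydratase, a dehydrogenase and a thiolase complete it. Peroxisomes run a related pathway for very long, branched and bile acid side chains. Acetyl-CoA can be turned into the ketone bodies acetoacetate and 3-hydroxybutyrate, chiefly in liver, and many other tissues turn ketone bodies back into acetyl-CoA.

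Library totals ranged from 28583554 to 134882175 counts (median 44018412). In SUM44 LTED-A, the counts of replicates 2 and 3 were closer than independent sampling allows (chi-square per degree of freedom 0.312, against 2.35 to 58.1 in the other 26 replicate pairs) and their mean entered as a single sample, so that SUM44 LTED-A has n = 2. Markers of luminal breast epithelium were present in every library, with EPCAM, which encodes an epithelial adhesion molecule, between 251 and 579 CPM (counts scaled to the library total). SUM44F replicate 1 stood apart: the summed level of 5 fibroblast markers was 350.4 CPM there and between 4.96 and 35.4 CPM in the other 25 samples. Leaving this library out ended 4 of the 63 calls for the 32 genes in fits that hold SUM44F and added 0: SLC25A20 and EHHADH in SUM44 LTED-B, HADHB between SUM44 LTED-A and LTED-B, and BDH2 in the comparison of the lines, each given below with its value. Other marker sums moved with LTED in MM134. The summed level of the leukocyte markers was between 0.429 and 1.04 CPM in MM134 parental libraries, between 24.03 and 24.5 in LTED-A, between 8.29 and 9.52 in LTED-B, and between 4.38 and 5.62 in LTED-D and LTED-E, carried by CD68 and LYZ, with CD3E at most 0.15 and PTPRC at most 2.60 CPM in any sample. That of the luminal markers was 4378 to 4401 CPM in MM134 parental cells and 6111 to 7095 in the LTED variants. The part of these markers in the results was not tested. Levels are CPM normalised by TMM over all samples, and fold changes come from the models of each line, so that a ratio of the levels printed here can depart from a fitted log2 fold change by up to 0.019. Genes were called upregulated or downregulated when the fold change exceeded 1.5 and the adjusted p of edgeR's quasi-likelihood test was below 0.001. Fold changes of members are given as log2 values with standard errors. Each standard error is the absolute log2 fold change divided by the square root of the F statistic of that test. Gene positions follow GENCODE v44 (hg38).

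In MM134 the calls for these genes were mostly upward, and in SUM44 they were mostly downward. Of the 31 members tested in MM134, 9 were upregulated and 4 downregulated in LTED-A, 6 and 2 in LTED-B, 8 and 2 in LTED-D, and 5 and 2 in LTED-E. Among all 26061 genes tested, 10.5% were upregulated and 9.82% downregulated in LTED-A, 8.11% and 7.75% in LTED-B, 9.63% and 7.95% in LTED-D, and 8.71% and 10.3% in LTED-E. The upregulated share of members was thus 29.0%, 19.4%, 25.8% and 16.1% in variants A, B, D and E, and the downregulated share 12.9%, 6.45%, 6.45% and 6.45%. The median log2 fold change of the members was 0.24, 0.21, 0.31 and 0.21 in the same order, where that of all genes lay between -0.028 and 0.021. Without the fold minimum, 24, 18, 22 and 21 members passed the threshold for p in that order, with 37.8%, 32.5%, 35.4% and 35.5% of all genes, and 20 passed it in at least 3 variants, with 28.6% of all genes. In SUM44, 2 of 32 members were upregulated and 7 downregulated in LTED-A, with 6.39% and 7.28% among all 26834 genes, and 4 were upregulated and 7 downregulated in LTED-B, with 8.69% and 8.57% among all genes. The median of the members was -0.12 in LTED-A and 0.017 in LTED-B, against -0.057 and -0.093 over all genes. The comparisons of a line share their parental libraries, and the shares over all genes were not matched to the members for expression level.

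Members called in the same direction across a line were counted with the 1.5-fold minimum. In at least 3 MM134 variants, 5 members were upregulated (HADHB, ETFA, ETFDH, ACAT1 and BDH1) and 1 was downregulated (ACOX2), which is 16.1% and 3.23% of the members tested, with 6.66% and 6.83% of all genes. In both SUM44 variants, 1 member was upregulated (HADH) and 5 were downregulated (ACADS, ACAD10, DECR1, BDH2 and PPARGC1A), or 3.12% and 15.6%, with 3.87% and 4.75% of all genes. In all, 21 members were called in at least 1 of the 6 comparisons, and 11 were called in none, where 37.6% of all 28672 genes tested in either line were called in at least 1.

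**Figure D1:**
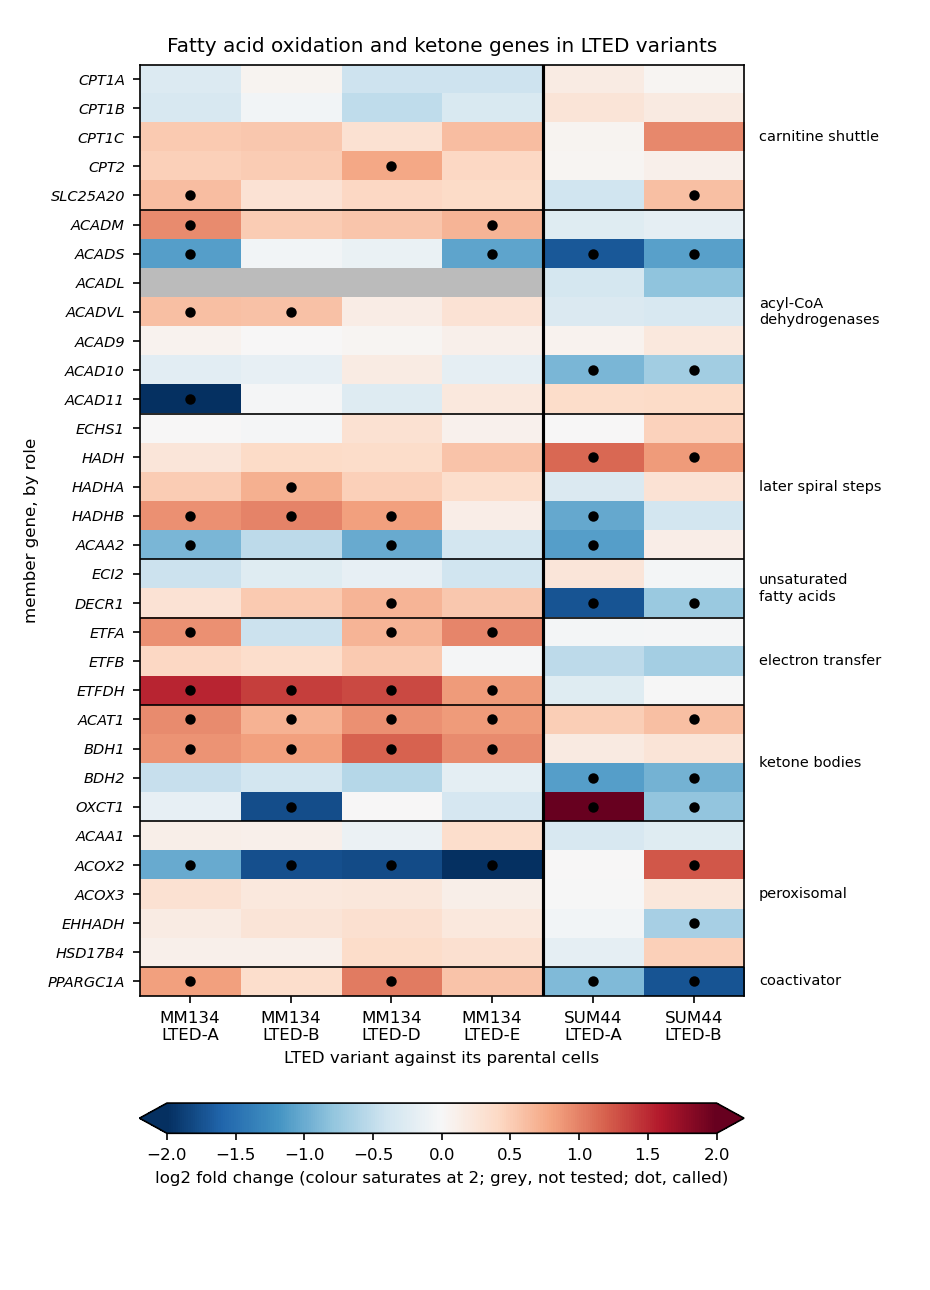
Log2 fold change of each of the 32 members (rows, grouped by role) in each LTED variant against its parental cells (columns; MM134 left of the heavy line, SUM44 right of it), with a dot on each call. ETFDH, ACAT1 and BDH1 carry an upward dot and ACOX2 a downward dot in all 4 MM134 columns, and ACADL was not tested in MM134 (grey).

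Normalised per kb of the canonical transcript, CPT1A had the highest level of the 32 genes in MM134 parental cells, at 87.8 ± 1.51 CPM per kb (SD, n = 3), followed by ETFB at 71.8 ± 1.14 and ECHS1 at 70.97 ± 0.560, which differ by less than their spread. In SUM44F the order was HADHB at 289 ± 2.85, HADHA at 182 ± 16.4, ACADVL at 122 ± 10.8 and CPT1A at 115 ± 6.48 CPM per kb, and ACADVL and CPT1A differ by less than their spread. At the low end of the per kb scale in both parental cultures stood ACADL, at 0.0800 ± 0.0237 CPM per kb in MM134 parental cells and 0.123 ± 0.0656 in SUM44F, and CPT1C, at 0.434 ± 0.00889 and 0.736 ± 0.232.

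The carnitine shuttle moves long-chain acyl groups into mitochondria, and CPT1A, the form of its rate-limiting outer-membrane enzyme in liver and many other tissues, was not called in any LTED variant. In MM134, CPT1A (chr11:68754620-68844410, minus strand) was measured at 469, 457 and 454 CPM in the parental libraries, 378, 388 and 381 in LTED-A, 466, 464 and 493 in LTED-B, 347, 333 and 346 in LTED-D and 353, 336 and 345 in LTED-E. In SUM44, it was measured at 609, 631 and 564 CPM in SUM44F, 705, 736 and 736 in SUM44PE, 699.8 and 649 in LTED-A and 617, 631 and 606 in LTED-B. The parental libraries of MM134 lay above those of LTED-A, LTED-D and LTED-E and overlapped LTED-B, while in SUM44 LTED-B overlapped SUM44F, LTED-A lay above both and SUM44PE was highest. For CPT1A, the fitted log2 fold change was -0.27 ± 0.028 in LTED-A, 0.049 ± 0.028 in LTED-B, -0.41 ± 0.028 in LTED-D and -0.41 ± 0.028 in LTED-E in MM134, with adjusted p of 9.08e-08, 0.165, 3.32e-10 and 3.69e-10, so that the differences in LTED-A, LTED-D and LTED-E passed the threshold for p but were smaller than 1.5-fold. In SUM44 it was 0.17 ± 0.097 in LTED-A and 0.039 ± 0.087 in LTED-B (adjusted p 0.220 and 0.742). The 40 tested genes nearest to CPT1A, 20 on each side, had median log2 fold changes of 0.076 to 0.37 in the 6 comparisons.

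Of the other members of the shuttle, CPT2 and SLC25A20 were called in LTED variants. CPT1B, the muscle form of the enzyme, had mean levels of 23.97 ± 1.70 CPM in MM134 parental cells and 23.7 ± 1.53 in SUM44F (SD, n = 3 each), was not called, and shares exons with the readthrough gene CHKB-CPT1B, whose reads Salmon may have divided with it. Muscle markers were summed at 2.03 CPM or less in every sample. CPT1C, which is best known from neurons, stayed between 1.21 and 5.002 CPM in all samples and was not called. CPT2, the inner-membrane enzyme that regenerates acyl-CoA, was upregulated in MM134 LTED-D (0.77 ± 0.042, adjusted p 1.83e-11), where it was measured at 39.1, 37.4 and 38.2 CPM against 22.6, 22.04 and 23.4 in parental cells. SLC25A20, the carrier that exchanges acylcarnitine for carnitine, was upregulated in MM134 LTED-A (0.62 ± 0.055, adjusted p 1.62e-08) and in SUM44 LTED-B (0.60 ± 0.10, adjusted p 6.14e-04). The call in SUM44 LTED-B was lost in 6 of the 8 fits that left out 1 library, each SUM44F and each LTED-B replicate among them, with log2 fold changes of 0.53 to 0.67 and adjusted p of 0.00154 to 0.00537 (0.61 and 0.00225 without SUM44F replicate 1). The call in MM134 LTED-A was lost without MM134 parental replicate 2 (0.57). SLC25A20 differed between the SUM44 variants, at 6.52 and 6.88 CPM in LTED-A and 13.3, 14.2 and 13.01 in LTED-B.

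The acyl-CoA dehydrogenases, which differ in the chain length they prefer, did not move as a class. ACADM (medium chains) and ACADVL (very long chains) were upregulated in 2 MM134 variants each, while ACADS (short chains) was downregulated in 2 MM134 variants and in both SUM44 variants. In MM134, ACADM (chr1:75724431-75787575, plus strand) was measured at 42.3, 41.95 and 42.2 CPM in the parental libraries, 85.1, 80.6 and 79.2 in LTED-A, 57.9, 60.2 and 62.1 in LTED-B, 61.98, 62.7 and 60.3 in LTED-D and 65.6, 66.9 and 67.7 in LTED-E. In SUM44, ACADM was measured at 29.6, 29.7 and 31.9 CPM in SUM44F, 20.9, 25.02 and 23.5 in SUM44PE, 23.1 and 28.4 in LTED-A and 27.1, 26.7 and 26.5 in LTED-B. Every MM134 LTED library lay above the parental libraries, and the SUM44 variants lay below SUM44F. On the log2 scale, the fold change of ACADM was 0.95 ± 0.034 in LTED-A, 0.52 ± 0.035 in LTED-B, 0.56 ± 0.035 in LTED-D and 0.67 ± 0.035 in LTED-E (adjusted p at most 5.84e-12 for the calls in LTED-A and LTED-E), and -0.24 ± 0.096 in LTED-A and -0.19 ± 0.085 in LTED-B in SUM44, not called. ACADM shares exons on the same strand with RABGGTB, a subunit of Rab geranylgeranyl transferase. RABGGTB was measured at 75.2 to 79.3 CPM in MM134 parental cells and 148 to 158 in LTED-A. In LTED-B it was measured at 101 to 112 CPM, in LTED-D at 100.1 to 106.9 and in LTED-E at 128 to 134. RABGGTB thus lay above parental cells in every MM134 variant, as ACADM did. How Salmon divided reads between them bears on these values and was not tested.

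ACADVL (chr17:7217125-7225266, plus strand) was measured in MM134 at 129.9, 139 and 139 CPM in the parental libraries, 207, 207 and 208 in LTED-A, 203, 204 and 204 in LTED-B, 146, 148 and 153 in LTED-D and 168, 164 and 163 in LTED-E. SUM44 samples gave 275, 285 and 240.0 CPM in SUM44F, 361, 361 and 362 in SUM44PE, 209.8 and 228 in LTED-A and 204, 221 and 216 in LTED-B. LTED-A and LTED-B stood above the other MM134 groups. The calls in LTED-A (0.60 ± 0.028) and LTED-B (0.59 ± 0.029) lay just above the 1.5-fold minimum, with adjusted p at most 3.58e-12, and both were lost without MM134 parental replicate 1, at 0.57 and 0.55. In LTED-D and LTED-E the log2 fold change was 0.14 ± 0.029 and 0.28 ± 0.029, and in the SUM44 variants -0.28 ± 0.095 and -0.32 ± 0.085, none of them called.

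ACADS (chr12:120725774-120740008, plus strand) was measured in MM134 at 14.3, 15.1 and 15.3 CPM in the parental libraries, 6.89, 6.44 and 7.64 in LTED-A, 14.3, 14.4 and 14.4 in LTED-B, 13.4, 13.6 and 13.6 in LTED-D and 6.94, 6.69 and 7.66 in LTED-E. SUM44 samples of ACADS gave 51.1, 48.3 and 42.3 CPM in SUM44F, 30.3, 34.6 and 32.8 in SUM44PE, 14.04 and 14.99 in LTED-A and 21.7, 22.05 and 23.1 in LTED-B. LTED-A and LTED-E of MM134 were below the other MM134 groups, LTED-B overlapped parental cells, and both SUM44 variants were below SUM44F and SUM44PE. ACADS fell by 1.10 on the log2 scale in MM134 LTED-A and by 1.06 in LTED-E (adjusted p at most 5.79e-11), and in SUM44 the log2 fold change was -1.70 ± 0.098 in LTED-A and -1.08 ± 0.084 in LTED-B (adjusted p at most 2.71e-06). ACAD10, a less studied dehydrogenase (chr12:111686053-111757107, plus strand), was downregulated in both SUM44 variants, at -0.91 ± 0.083 in LTED-A and -0.70 ± 0.073 in LTED-B (adjusted p at most 2.35e-05). The SUM44 samples of ACAD10 gave 46.8, 46.9 and 42.3 CPM in SUM44F, 36.9, 38.02 and 39.2 in SUM44PE, 24.5 and 23.6 in LTED-A and 27.3, 29.5 and 26.8 in LTED-B. In MM134, ACAD10 was measured at 15.5, 13.7 and 14.8 CPM in the parental libraries, 12.2, 13.4 and 12.5 in LTED-A, 13.3, 12.9 and 13.1 in LTED-B, 17.5, 17.01 and 14.7 in LTED-D and 12.4, 12.8 and 13.2 in LTED-E, and no variant was called (-0.21 ± 0.065 in LTED-A, -0.16 ± 0.067 in LTED-B, 0.17 ± 0.066 in LTED-D and -0.18 ± 0.066 in LTED-E). ACAD10 shares exons with a gene known only as ENSG00000257767, which was measured at 1.49 to 1.96 CPM in MM134 parental cells, 7.73 to 11.2 in MM134 LTED-A, 12.97 to 21.1 in SUM44F and 25.9 to 27.4 in SUM44 LTED-A.

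ACAD11 (chr3:132558138-132660082, minus strand), which handles 4-hydroxy and long acyl chains, was downregulated in MM134 LTED-A and in no other variant. It was measured in MM134 at 10.9, 9.63 and 8.78 CPM in the parental libraries, 2.18, 2.47 and 2.27 in LTED-A, 9.42, 9.26 and 9.98 in LTED-B, 7.75, 8.34 and 8.27 in LTED-D and 11.3, 10.99 and 11.4 in LTED-E. In SUM44, ACAD11 was measured at 10.3, 10.02 and 10.5 CPM in SUM44F, 7.57, 7.28 and 7.81 in SUM44PE, 12.7 and 13.9 in LTED-A and 13.01, 15.004 and 12.3 in LTED-B. The LTED-A libraries lay far below all the others. Against parental cells, the log2 fold change was -2.10 ± 0.080 in LTED-A (adjusted p 7.16e-14), and -0.030 ± 0.073, -0.25 ± 0.074 and 0.21 ± 0.071 in LTED-B, LTED-D and LTED-E, none of them called. The difference among the MM134 variants passed the test (adjusted p 1.24e-13).

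Among the remaining dehydrogenases, ACAD9, which is needed to assemble respiratory complex I, stayed between 0.013 and 0.22 in the 6 comparisons and was not called. ACADL (long chains) had at most 23 counts in any sample, was left out of the MM134 model by the filter on low counts, and was not called in SUM44. For the dehydrogenases called in any comparison of this section, the 40 nearest genes had median log2 fold changes of 0.041 to 0.21 (ACADM), -0.017 to 0.20 (ACADVL), -0.045 to 0.28 (ACADS), 0.10 to 0.42 (ACAD10) and -0.083 to 0.12 (ACAD11).

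The later steps of the spiral are carried out on long chains by the mitochondrial trifunctional protein, whose alpha subunit (hydratase and dehydrogenase) is encoded by HADHA and whose beta subunit (thiolase) is encoded by HADHB. HADHA (chr2:26190635-26244672, minus strand) and HADHB (chr2:26243170-26290465, plus strand) lie head to head on opposite strands, and their RefSeq starts are 307 bases apart. The longest stretch between these starts that holds no annotated exon is shown because the levels of this gene pair differ between the cell lines and shift against each other in LTED cells. It covers 75 bases at chr2:26244673-26244747 of GRCh38.p14 (RefSeq), plus strand, and is printed 5′ to 3′ with CG dinucleotides in capitals:
HADHA-HADHB: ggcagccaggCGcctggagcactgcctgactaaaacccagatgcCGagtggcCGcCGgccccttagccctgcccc
This stretch holds 4 CG dinucleotides, or 5.33 per 100 bases, where the median over the 250 bases before all RefSeq starts was 4.40 per 100 bases.

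HADHB was upregulated in MM134 LTED-A, LTED-B and LTED-D and downregulated in SUM44 LTED-A. In MM134, HADHB was measured at 78.4, 73.8 and 75.9 CPM in the parental libraries, 143, 146 and 141 in LTED-A, 148, 149.5 and 157 in LTED-B, 134, 133 and 130.4 in LTED-D and 83.6, 81.9 and 83.4 in LTED-E. In SUM44, HADHB was measured at 572, 583 and 575 CPM in SUM44F, 489, 532 and 513 in SUM44PE, 256 and 309 in LTED-A and 460.3, 447 and 434 in LTED-B. LTED-E overlapped neither the parental libraries nor the other variants and stood near the parental level. The log2 fold change of HADHB was 0.91 ± 0.030 in LTED-A, 0.997 ± 0.030 in LTED-B, 0.81 ± 0.030 in LTED-D and 0.14 ± 0.030 in LTED-E (adjusted p at most 5.76e-14 for the calls), and -1.03 ± 0.10 in LTED-A and -0.37 ± 0.090 in LTED-B in SUM44 (adjusted p 2.51e-05 in LTED-A). The 40 nearest genes had medians of 0.027 to 0.41, the highest in MM134 LTED-B. HADHA was measured in MM134 at 156, 150.4 and 153 CPM in the parental libraries, 214, 219 and 221 in LTED-A, 241, 247 and 259 in LTED-B, 210.5, 211 and 214 in LTED-D and 193, 191 and 196 in LTED-E. SUM44 samples of HADHA gave 554, 569 and 479 CPM in SUM44F, 501, 513 and 517 in SUM44PE, 417 and 455 in LTED-A and 661, 655 and 648 in LTED-B. HADHA was upregulated in MM134 LTED-B (0.71 ± 0.026, adjusted p 8.15e-14), and with 0.50 ± 0.026 in LTED-A, 0.48 ± 0.027 in LTED-D and 0.35 ± 0.026 in LTED-E it was below the 1.5-fold minimum.

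The ratio of HADHB to HADHA, each per kb of transcript, differed between groups. It was 0.723 to 0.743 in MM134 parental cells, 0.626 to 0.638 in LTED-E, 0.940 to 0.987 in LTED-A, 0.899 to 0.939 in LTED-D and 0.891 to 0.906 in LTED-B. In SUM44 the ratio was 1.51 to 1.77 in SUM44F, 1.44 to 1.53 in SUM44PE, 0.906 to 1.001 in LTED-A and 0.986 to 1.03 in LTED-B. In 3 MM134 variants and both SUM44 variants the samples thus lay nearer to a ratio of 1 than those of the parental cells, from below in MM134 and from above in SUM44, and MM134 LTED-E was the exception. Where a ratio of 1 falls depends on the canonical transcript lengths, and which transcripts were expressed was not checked.

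**Figure D2:**
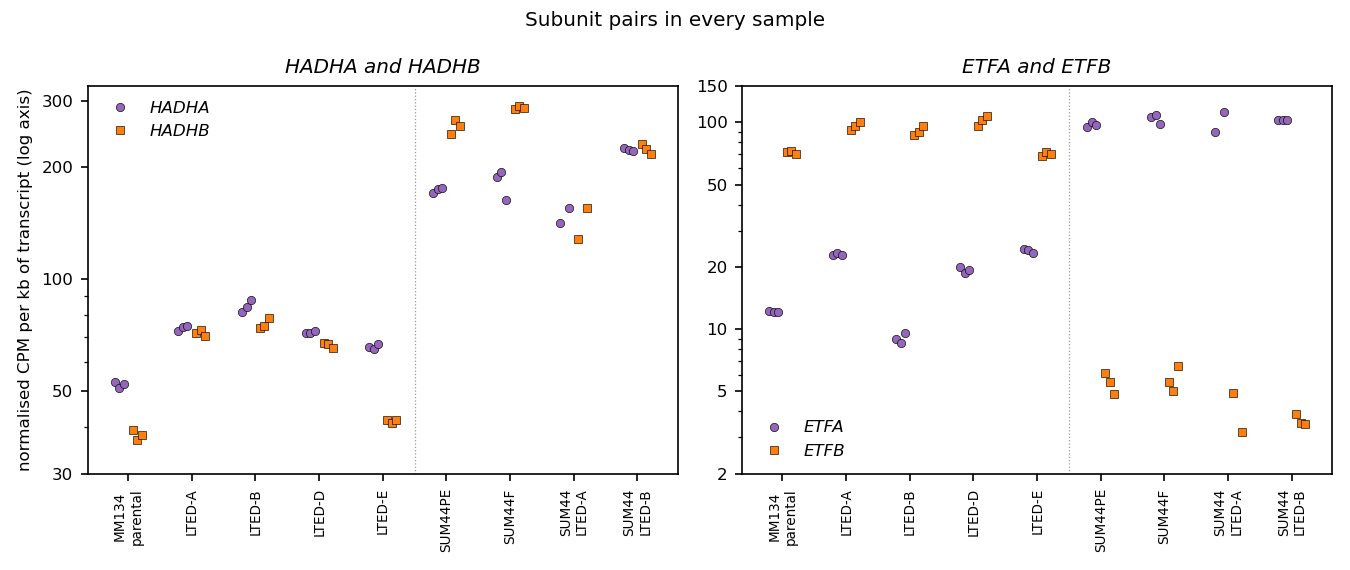
Level in every sample of HADHA and HADHB (left) and of ETFA and ETFB (right), as normalised CPM per kb of the canonical transcript on a log axis, for the 5 MM134 groups (left of the dotted line) and the 4 SUM44 groups. HADHA and HADHB differ in the same direction between the lines, whereas ETFA was higher in SUM44 and ETFB was higher in MM134.

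HADH, the dehydrogenase for shorter chains (chr4:107989714-108035241, plus strand), was upregulated in both SUM44 variants. In SUM44, HADH was measured at 33.1, 33.8 and 27.8 CPM in SUM44F, 35.6, 38.8 and 40.2 in SUM44PE, 66.8 and 72.1 in LTED-A and 58.4, 56.4 and 55.9 in LTED-B. In MM134, HADH was measured at 39.2, 38.6 and 39.3 CPM in the parental libraries, 45.8, 46.9 and 45.7 in LTED-A, 48.8, 50.4 and 52.3 in LTED-B, 51.2, 48.4 and 50.1 in LTED-D and 57.8, 55.7 and 59.8 in LTED-E. Both SUM44 variants lay above SUM44F and SUM44PE, and every MM134 LTED library lay above the parental libraries. For HADH, the fitted log2 fold change was 1.14 ± 0.089 in LTED-A and 0.85 ± 0.081 in LTED-B in SUM44 (adjusted p at most 1.29e-05) and 0.24 ± 0.034 in LTED-A, 0.38 ± 0.035 in LTED-B, 0.37 ± 0.035 in LTED-D and 0.58 ± 0.034 in LTED-E in MM134, where LTED-E was just below the 1.5-fold minimum. The medians of the 40 nearest genes were 0.058 to 0.38. ACAA2, the mitochondrial thiolase that releases acetyl-CoA, was downregulated in MM134 LTED-A (-0.91 ± 0.042), MM134 LTED-D (-1.001 ± 0.044) and SUM44 LTED-A (-1.10 ± 0.083, adjusted p 3.09e-06), with 31.1 and 35.8 CPM in SUM44 LTED-A against 73.5, 74.8 and 67.1 in SUM44F. In SUM44 LTED-B ACAA2 was measured at 78.4, 80.8 and 76.8 CPM and was not called. ECHS1, the hydratase for short chains, stayed between -0.029 and 0.46 and was not called in any variant.

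Unsaturated fatty acids need auxiliary enzymes before they can pass through the spiral, and DECR1, the 2,4-dienoyl-CoA reductase (chr8:90001405-90053633, plus strand), was downregulated in both SUM44 variants and upregulated in MM134 LTED-D. In SUM44, DECR1 was measured at 74.01, 73.3 and 71.2 CPM in SUM44F, 46.2, 49.4 and 48.4 in SUM44PE, 19.8 and 24.1 in LTED-A and 45.1, 42.5 and 42.9 in LTED-B. In MM134, DECR1 was measured at 40.1, 38.1 and 41.02 CPM in the parental libraries, 48.1, 50.5 and 47.7 in LTED-A, 52.5, 56.5 and 62.8 in LTED-B, 63.7, 64.6 and 60.8 in LTED-D and 58.8, 55.9 and 57.3 in LTED-E. LTED-A of SUM44 was the lowest group and SUM44F the highest, with LTED-B and SUM44PE between them, and every MM134 LTED library lay above the parental ones. On the log2 scale, the fold change of DECR1 was -1.73 ± 0.092 in LTED-A and -0.74 ± 0.077 in LTED-B in SUM44 (adjusted p at most 2.31e-05), 0.68 ± 0.052 in MM134 LTED-D (adjusted p 2.41e-09), and 0.29 ± 0.051, 0.53 ± 0.052 and 0.54 ± 0.052 in LTED-A, LTED-B and LTED-E, not called. The 40 nearest genes had medians of -0.057 to 0.10. ECI2, an enoyl-CoA isomerase, stayed between -0.43 and 0.25 in the 6 comparisons and was not called.

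Electrons from the dehydrogenases pass to electron transfer flavoprotein, a dimer of the products of ETFA and ETFB, and from there to ETFDH, which reduces ubiquinone. ETFDH (chr4:158671968-158710742, plus strand) was upregulated in all 4 MM134 variants and in neither SUM44 variant. In MM134, ETFDH was measured at 9.61, 9.90 and 9.85 CPM in the parental libraries, 28.1, 28.2 and 28.4 in LTED-A, 25.7, 24.04 and 26.8 in LTED-B, 24.2, 24.1 and 24.4 in LTED-D and 17.9, 17.5 and 16.9 in LTED-E. In SUM44, ETFDH was measured at 18.4, 18.6 and 18.5 CPM in SUM44F, 21.2, 22.3 and 21.9 in SUM44PE, 15.1 and 16.1 in LTED-A and 18.8, 18.3 and 18.3 in LTED-B. Every MM134 LTED library lay above the parental libraries, with LTED-E lowest among the variants. Against parental cells, the log2 fold change was 1.52 ± 0.043 in LTED-A, 1.39 ± 0.044 in LTED-B, 1.32 ± 0.045 in LTED-D and 0.85 ± 0.045 in LTED-E (adjusted p at most 1.05e-11), and -0.25 ± 0.082 in LTED-A and -0.0045 ± 0.073 in LTED-B in SUM44. The 40 nearest genes had medians of 0.090 to 0.23. ETFDH shares exons with a U3 gene on the same strand and overlaps C4orf46 and PPID on the opposite strand.

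ETFA (chr15:76188555-76311730, minus strand) was upregulated in LTED-A, LTED-D and LTED-E of MM134, whereas LTED-B stood below parental cells. In MM134, ETFA was measured at 28.1, 27.8 and 27.7 CPM in the parental libraries, 52.2, 53.5 and 51.99 in LTED-A, 20.5, 19.7 and 21.9 in LTED-B, 45.5, 42.9 and 44.04 in LTED-D and 55.7, 55.03 and 53.4 in LTED-E. In SUM44, ETFA was measured at 244, 248 and 224 CPM in SUM44F, 218, 229 and 223 in SUM44PE, 207 and 258 in LTED-A and 236, 235 and 235 in LTED-B. The groups of SUM44 overlapped, and in MM134 LTED-B was lowest. The log2 fold change of ETFA was 0.91 ± 0.038 in LTED-A, -0.42 ± 0.040 in LTED-B, 0.68 ± 0.039 in LTED-D and 0.98 ± 0.038 in LTED-E (adjusted p at most 3.52e-11 for the calls, and 5.32e-08 in LTED-B, which was below the 1.5-fold minimum), and -0.039 ± 0.10 in LTED-A and -0.023 ± 0.090 in LTED-B in SUM44. ETFA differed among the MM134 variants (adjusted p 3.15e-15). ETFB (chr19:51345169-51366388, minus strand) was not called in any variant. In MM134, ETFB was measured at 62.6, 63.6 and 61.6 CPM in the parental libraries, 80.2, 83.4 and 87.3 in LTED-A, 75.9, 78.7 and 83.7 in LTED-B, 84.2, 89.1 and 93.6 in LTED-D and 59.8, 62.9 and 61.6 in LTED-E. In SUM44, ETFB was measured at 4.84, 4.38 and 5.81 CPM in SUM44F, 5.34, 4.86 and 4.23 in SUM44PE, 4.28 and 2.79 in LTED-A and 3.37, 3.07 and 3.04 in LTED-B. Every MM134 library lay above every SUM44 library. For ETFB, the fitted log2 fold change was 0.41 ± 0.041 in LTED-A, 0.35 ± 0.042 in LTED-B, 0.52 ± 0.042 in LTED-D and -0.017 ± 0.042 in LTED-E in MM134 and -0.52 ± 0.20 in LTED-A and -0.67 ± 0.18 in LTED-B in SUM44. The medians of the 40 nearest genes were -0.060 to 0.22 for ETFA and -0.15 to 0.026 for ETFB.

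These subunits stood in opposite proportion in the cell lines. Per kb of transcript, the ratio of ETFA to ETFB was 0.166 to 0.171 in MM134 parental cells and 14.7 to 21.6 in SUM44F, and across the MM134 variants it ran from 0.0953 to 0.103 in LTED-B to 0.331 to 0.355 in LTED-E. ETFB shares exons on the same strand with a gene known only as ENSG00000269403. That gene was measured at 0.416 to 0.464 CPM in MM134 parental cells and at most 0.120 in SUM44F. The division of reads between them by Salmon was not tested.

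Of the enzymes of ketone bodies, ACAT1 and BDH1 were upregulated in all 4 MM134 variants. ACAT1 (chr11:108116695-108147603, plus strand), the mitochondrial thiolase that joins or splits acetoacetyl-CoA, was measured in MM134 at 21.8, 21.3 and 21.4 CPM in the parental libraries, 42.3, 41.2 and 41.5 in LTED-A, 34.1, 34.1 and 36.5 in LTED-B, 38.4, 41.8 and 39.7 in LTED-D and 38.3, 38.3 and 39.6 in LTED-E. In SUM44, ACAT1 was measured at 34.002, 33.97 and 31.9 CPM in SUM44F, 29.6, 31.7 and 30.6 in SUM44PE, 41.1 and 52.3 in LTED-A and 52.2, 50.5 and 49.1 in LTED-B. The LTED libraries of both lines lay above the parental libraries. On the log2 scale, the fold change was 0.95 ± 0.038 in LTED-A, 0.70 ± 0.039 in LTED-B, 0.91 ± 0.039 in LTED-D and 0.86 ± 0.039 in LTED-E in MM134 (adjusted p at most 2.58e-11), and 0.49 ± 0.097 in LTED-A and 0.60 ± 0.088 in LTED-B in SUM44, where only LTED-B was called (adjusted p 0.00245 and 2.70e-04). The call in SUM44 LTED-B was lost in each fit that left out SUM44F replicate 2 or 3 or any replicate of LTED-B, with adjusted p between 0.00148 and 0.00225 and log2 fold changes between 0.57 and 0.62, and in SUM44 LTED-A a call appeared without LTED-A replicate 1 (0.70, adjusted p 1.72e-04).

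BDH1 (chr3:197509783-197573323, minus strand), which interconverts acetoacetate and 3-hydroxybutyrate in mitochondria, was measured in MM134 at 26.6, 27.1 and 24.5 CPM in the parental libraries, 47.1, 48.5 and 50.7 in LTED-A, 43.6, 47.3 and 47.1 in LTED-B, 56.2, 59.96 and 59.5 in LTED-D and 49.6, 48.8 and 51.2 in LTED-E. In SUM44, BDH1 was measured at 27.4, 28.3 and 22.8 CPM in SUM44F, 22.6, 25.02 and 25.4 in SUM44PE, 29.6 and 29.3 in LTED-A and 29.3, 32.8 and 32.1 in LTED-B. Every MM134 LTED library lay above the parental libraries, and the SUM44 variants lay above SUM44F by little. Against parental cells, the log2 fold change was 0.90 ± 0.043 in LTED-A, 0.82 ± 0.044 in LTED-B, 1.18 ± 0.044 in LTED-D and 0.95 ± 0.044 in LTED-E (adjusted p at most 1.45e-11), and 0.17 ± 0.10 in LTED-A and 0.26 ± 0.090 in LTED-B in SUM44, not called. BDH2 (chr4:103077592-103099870, minus strand), a cytosolic hydroxybutyrate dehydrogenase, was downregulated in both SUM44 variants. In SUM44, BDH2 was measured at 22.7, 22.5 and 21.8 CPM in SUM44F, 23.5, 24.4 and 23.03 in SUM44PE, 9.61 and 11.2 in LTED-A and 11.4, 11.6 and 11.8 in LTED-B. In MM134, BDH2 was measured at 24.2, 22.1 and 24.7 CPM in the parental libraries, 17.1, 17.8 and 16.9 in LTED-A, 17.4, 18.4 and 18.8 in LTED-B, 14.3, 16.03 and 16.9 in LTED-D and 19.9, 20.6 and 20.8 in LTED-E. Every LTED library of either line lay below its parental libraries. BDH2 shares exons on the same strand with SLC9B2, whose level was not read here. The log2 fold change of BDH2 was -1.10 ± 0.097 in LTED-A and -0.94 ± 0.085 in LTED-B in SUM44 (adjusted p at most 9.63e-06) and -0.46 ± 0.054 in LTED-A, -0.37 ± 0.055 in LTED-B, -0.57 ± 0.056 in LTED-D and -0.20 ± 0.054 in LTED-E in MM134, all below the 1.5-fold minimum.

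OXCT1 (chr5:41730065-41870425, minus strand), which activates acetoacetate and so commits ketone bodies to oxidation, moved in opposite directions in the SUM44 variants. In SUM44, OXCT1 was measured at 12.5, 13.1 and 12.96 CPM in SUM44F, 48.8, 52.9 and 50.8 in SUM44PE, 61.7 and 78.1 in LTED-A and 7.47, 7.66 and 7.21 in LTED-B. In MM134, OXCT1 was measured at 78.7, 72.7 and 79.9 CPM in the parental libraries, 69.2, 70.4 and 67.2 in LTED-A, 22.5, 21.9 and 23.4 in LTED-B, 76.5, 78.3 and 75.3 in LTED-D and 60.6, 60.2 and 61.9 in LTED-E. SUM44 LTED-A and SUM44PE were high, SUM44F and LTED-B were low, and in MM134 LTED-B lay far below the other groups. For OXCT1, the fitted log2 fold change was 2.45 ± 0.10 in SUM44 LTED-A (adjusted p 3.98e-08) and -0.79 ± 0.096 in SUM44 LTED-B (adjusted p 7.04e-05), and the direct difference between LTED-A and LTED-B was 3.24 ± 0.11 (adjusted p 2.67e-08). SUM44PE itself stood 1.98 ± 0.087 above SUM44F (adjusted p 9.37e-09), and the difference between LTED-A and SUM44PE was not tested. In MM134 the log2 fold change of OXCT1 was -1.77 ± 0.040 in LTED-B (adjusted p 5.43e-17) and -0.17 ± 0.036, 0.0053 ± 0.037 and -0.33 ± 0.037 in LTED-A, LTED-D and LTED-E, and the variants differed (adjusted p 2.71e-16). The 40 nearest genes had medians of -0.092 to 0.065 for ACAT1, -0.013 to 0.47 for BDH2 and -0.033 to 0.12 for OXCT1, and the 27 genes read around BDH1 had medians of -0.23 to 0.11.

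**Figure D3:**
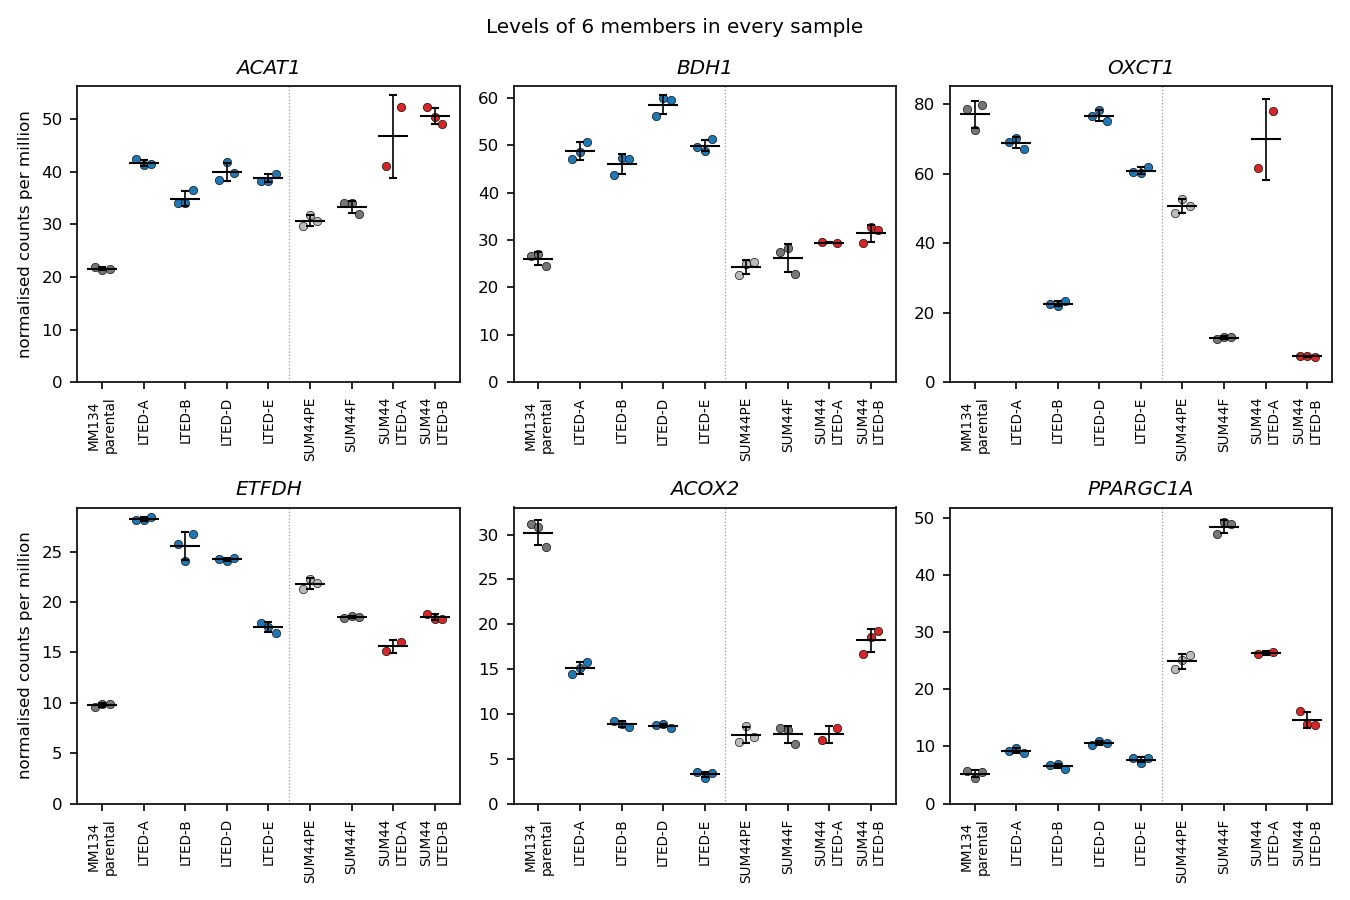
Normalised CPM of ACAT1, BDH1, OXCT1, ETFDH, ACOX2 and PPARGC1A in every sample of the 9 groups, MM134 left of the dotted line and SUM44 right of it. Points are samples, wide ticks are group means and error bars are SD (n = 3, or 2 in SUM44 LTED-A). In MM134 the LTED points of ACAT1, BDH1 and ETFDH lie above and those of ACOX2 below the parental points, and OXCT1 is at 21.9 to 23.4 CPM in LTED-B.

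The peroxisomal members called in any variant were ACOX2 and EHHADH. ACOX2 (chr3:58505136-58537283, minus strand), the oxidase for branched chains and bile acid intermediates, was downregulated in all 4 MM134 variants and upregulated in SUM44 LTED-B. In MM134, ACOX2 was measured at 31.1, 30.8 and 28.6 CPM in the parental libraries, 14.5, 15.2 and 15.7 in LTED-A, 9.24, 8.86 and 8.58 in LTED-B, 8.78, 8.87 and 8.48 in LTED-D and 3.48, 2.88 and 3.40 in LTED-E. In SUM44, ACOX2 was measured at 8.40, 8.20 and 6.64 CPM in SUM44F, 6.92, 8.66 and 7.41 in SUM44PE, 7.04 and 8.40 in LTED-A and 16.7, 18.6 and 19.3 in LTED-B. The parental libraries of MM134 lay above all LTED libraries, with LTED-E lowest, and SUM44 LTED-B lay above the other SUM44 groups, which overlapped. On the log2 scale, the fold change was -1.01 ± 0.054 in LTED-A, -1.76 ± 0.058 in LTED-B, -1.78 ± 0.059 in LTED-D and -3.20 ± 0.066 in LTED-E (adjusted p at most 1.13e-11), and 0.0056 ± 0.13 in LTED-A and 1.24 ± 0.12 in LTED-B in SUM44 (adjusted p 1.46e-05 in LTED-B). ACOX2 differed among the MM134 variants (adjusted p 3.66e-14), and the 40 nearest genes had medians of -0.049 to 0.12.

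EHHADH (chr3:185190624-185281990, minus strand), a bifunctional enzyme of hydration and dehydrogenation, was downregulated in SUM44 LTED-B. In SUM44, EHHADH was measured at 8.16, 9.02 and 8.12 CPM in SUM44F, 10.01, 11.5 and 10.6 in SUM44PE, 7.71 and 8.55 in LTED-A and 5.21, 5.29 and 5.46 in LTED-B. In MM134, EHHADH was measured at 7.84, 7.12 and 6.80 CPM in the parental libraries, 8.59, 8.13 and 7.81 in LTED-A, 8.63, 7.79 and 9.63 in LTED-B, 9.04, 9.12 and 8.76 in LTED-D and 8.42, 8.09 and 8.51 in LTED-E. The SUM44 LTED-B libraries lay below SUM44F, and LTED-A overlapped SUM44F. Against parental cells, the log2 fold change of EHHADH was -0.66 ± 0.10 in SUM44 LTED-B (adjusted p 3.88e-04), -0.049 ± 0.11 in SUM44 LTED-A and 0.17 ± 0.075 in LTED-A, 0.26 ± 0.077 in LTED-B, 0.32 ± 0.078 in LTED-D and 0.21 ± 0.077 in LTED-E in MM134. Without SUM44F replicate 1, the library with fibroblast transcripts, its adjusted p in SUM44 LTED-B was 0.00115 (log2 fold change -0.69), and it was also lost when SUM44F replicate 2 or any replicate of LTED-B was left out. The 40 nearest genes had medians of 0.043 to 0.19. ACAA1 (the peroxisomal thiolase), ACOX3 (an oxidase of branched chains) and HSD17B4 (the D-bifunctional protein, which can also oxidise estradiol) were not called. Their log2 fold changes ranged over -0.33 to 0.36 for ACAA1, -0.00025 to 0.30 for ACOX3 and -0.18 to 0.48 for HSD17B4.

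PPARGC1A (chr4:23755041-23904089, minus strand) encodes the coactivator PGC-1 alpha, which works with nuclear receptors on genes of mitochondrial oxidation, and it was upregulated in MM134 LTED-A and LTED-D and downregulated in both SUM44 variants. In MM134, PPARGC1A was measured at 5.63, 4.51 and 5.54 CPM in the parental libraries, 9.16, 9.69 and 8.85 in LTED-A, 6.78, 6.90 and 6.14 in LTED-B, 10.2, 10.9 and 10.7 in LTED-D and 7.93, 7.18 and 8.05 in LTED-E. In SUM44, PPARGC1A was measured at 47.1, 49.2 and 48.9 CPM in SUM44F, 23.5, 25.2 and 25.9 in SUM44PE, 26.1 and 26.5 in LTED-A and 16.2, 13.9 and 13.8 in LTED-B. Every MM134 LTED library lay above the parental libraries, SUM44F was the highest SUM44 group, LTED-A was close to SUM44PE, and LTED-B was the lowest. The log2 fold change was 0.82 ± 0.083 in LTED-A, 0.35 ± 0.087 in LTED-B, 1.04 ± 0.085 in LTED-D and 0.58 ± 0.085 in LTED-E in MM134 (adjusted p at most 8.93e-08 for the calls in LTED-A and LTED-D), and -0.88 ± 0.088 in LTED-A and -1.73 ± 0.079 in LTED-B in SUM44 (adjusted p at most 2.22e-05). The fitted value of PPARGC1A in LTED-E missed the 1.5-fold minimum narrowly. LTED-A and LTED-B of SUM44 differed by 0.85 ± 0.086 (adjusted p 4.71e-05), and SUM44PE lay -0.97 ± 0.072 from SUM44F (adjusted p 7.79e-07). The 40 nearest genes had medians of -0.11 to 0.047.

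Whether a member responded differently in the lines was asked of the interaction, which subtracts the average log2 fold change of the SUM44 variants (2) from that of the MM134 variants (4). Of 32 members tested, 12 were more positive in MM134 and 4 were more positive in SUM44, or 37.5% and 12.5%, where 10.8% and 10.2% of all 29200 genes were. The median difference of the members was 0.35, against 0.061 over all genes. The differences toward MM134 were largest for PPARGC1A (1.99 ± 0.094), DECR1 (1.73 ± 0.078), HADHB (1.40 ± 0.065) and ETFDH (1.39 ± 0.057), and those toward SUM44 for ACOX2 (-2.57 ± 0.10) and OXCT1 (-1.40 ± 0.079). For PPARGC1A the line means were 0.69 in MM134 and -1.30 in SUM44, for DECR1 0.51 and -1.24, and for ACOX2 -1.94 and 0.62. ACADS, ACAD10 and BDH2 were more positive in MM134 only in that they were less negative there. Line means in MM134 and SUM44 were -0.58 and -1.39 for ACADS, -0.097 and -0.81 for ACAD10, and -0.40 and -1.02 for BDH2. BDH2 was below the 1.5-fold minimum in this comparison without SUM44F replicate 1 (0.58, adjusted p 1.14e-05) and in 6 other fits that left out 1 library (0.52 to 0.58), and EHHADH was below it in 14 such fits (0.52 to 0.58). HADH (-0.62 ± 0.062) was below it without SUM44F replicate 3 (-0.52). The line mean for ACAD11 rested on LTED-A, and that for OXCT1 on LTED-B of MM134 and LTED-A of SUM44. The SUM44 means were taken against SUM44F alone. SUM44PE itself differed from SUM44F in OXCT1 (1.98), PPARGC1A (-0.97) and DECR1 (-0.61), and the interaction against SUM44PE was not tested. ACAT1 was not called in the interaction (0.30 ± 0.077, adjusted p 0.00304), nor was CPT1A (-0.37 ± 0.049).

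**Figure D4:**
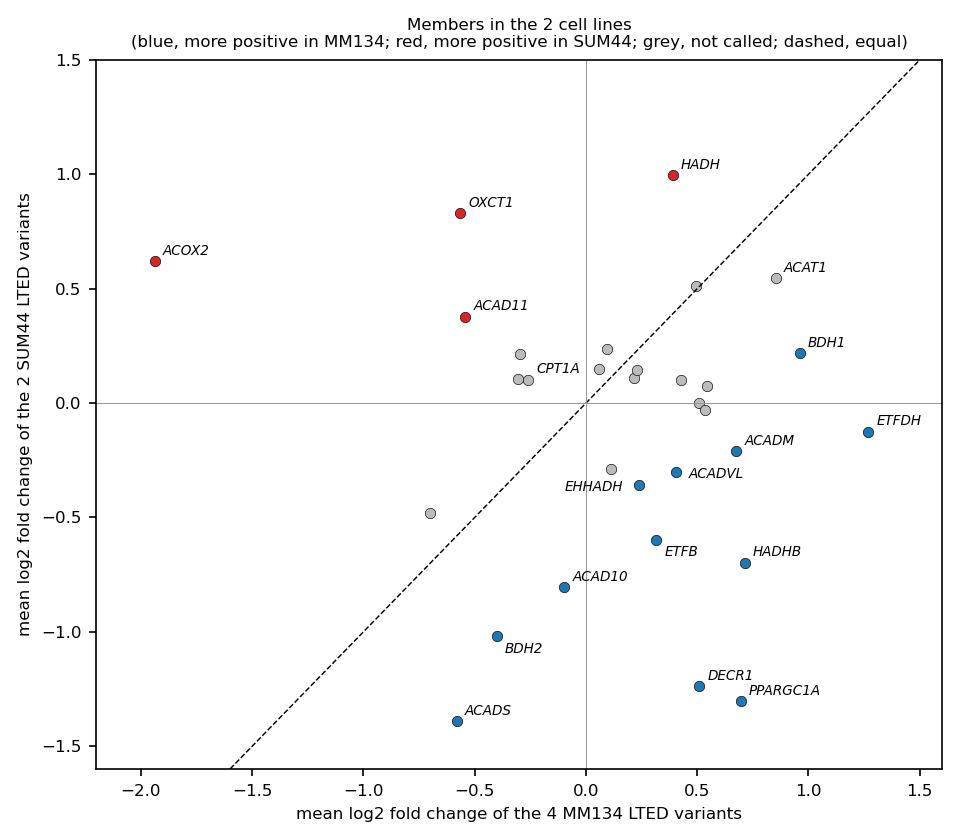
Mean log2 fold change of the 4 MM134 LTED variants (horizontal axis) against that of the 2 SUM44 LTED variants (vertical axis) for the 31 members tested in both lines, with members more positive in MM134 in blue, those more positive in SUM44 in red and those not called in grey. PPARGC1A, DECR1 and HADHB lie to the right of 0 and below it, and ACOX2 and OXCT1 to the left and above.

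Parental cells of the lines differed in many of these genes. Against SUM44F, 3 members were higher and 13 lower in MM134 parental cells, or 9.38% and 40.6%, where 18.9% and 19.2% of all genes were. The largest differences among members were those of ETFB (3.60 ± 0.10), PPARGC1A (-3.23 ± 0.082), ETFA (-3.12 ± 0.065), HADHB (-2.94 ± 0.057) and OXCT1 (2.57 ± 0.068). The 40 genes nearest HADHB also stood lower in MM134, with a median of -1.57, whereas the medians were 0.091 around ETFB, 0.18 around PPARGC1A, 0.26 around ETFA and 0.24 around OXCT1. SUM44PE differed from SUM44F in 3 members, with OXCT1 higher and DECR1 (-0.61 ± 0.073) and PPARGC1A lower, or 3.12% and 6.25%, against 2.85% and 2.72% of all genes. Without the fold minimum 5 members were called there, with 7.56% of all genes, and DECR1 missed the minimum without SUM44PE replicate 1 (-0.57). The variants of a line also differed from each other. Between SUM44 LTED-A and LTED-B, 2 members were higher in LTED-A (OXCT1 and PPARGC1A) and 6 lower (SLC25A20, ACADS, HADHB, ACAA2, DECR1 and ACOX2), or 6.25% and 18.8%, with 3.56% and 3.86% of all genes. This count of 8 fell to 4 without LTED-A replicate 1 and to 5 without LTED-B replicate 2. Of the 8 fits that left out 1 library, 7 lost HADHB (-0.68 to -0.51, adjusted p 0.00114 to 0.00685, with -0.66 and 0.00191 without SUM44F replicate 1), 6 lost ACADS (-0.68 to -0.55, adjusted p 0.00200 to 0.0135), 2 lost SLC25A20 and 1 lost ACOX2. Among the 4 MM134 variants, 9 of 31 members differed (29.0%), with 19.6% of all genes, and without the fold minimum 27 did, with 42.2% of all genes.

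The other genes of these pathways fall outside the 32 and were read from a list of 27, of which 26 were tested in MM134 and 24 in SUM44. In MM134, 7 were upregulated and 6 downregulated in LTED-A, 7 and 7 in LTED-B, 7 and 5 in LTED-D, and 2 and 7 in LTED-E. The shares were 26.9% and 23.1% in LTED-A, 26.9% and 26.9% in LTED-B, 26.9% and 19.2% in LTED-D, and 7.69% and 26.9% in LTED-E. Among all genes, between 7.75% and 10.5% were called in each direction in these variants. The medians of the list lay between -0.060 and 0.055. In SUM44, 2 were upregulated and 5 downregulated in LTED-A (8.33% and 20.8%), and 3 and 3 in LTED-B (12.5% and 12.5%). Of all genes, 6.39% and 7.28% were called in LTED-A and 8.69% and 8.57% in LTED-B. SLC16A1, a carrier of lactate and ketone bodies across the plasma membrane, was downregulated in all 6 variants, at -4.13 ± 0.10 in LTED-A, -4.44 ± 0.11 in LTED-B, -2.97 ± 0.096 in LTED-D and -2.96 ± 0.094 in LTED-E in MM134 and -1.48 ± 0.089 in LTED-A and -1.04 ± 0.077 in LTED-B in SUM44. SUM44PE was also below SUM44F for SLC16A1 (-1.01 ± 0.073).

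Of the genes that activate fatty acids or control their oxidation, ACSL1 (an acyl-CoA synthetase) was downregulated in all 4 MM134 variants (-1.52, -1.20, -1.22 and -2.17), as was PPARA, a nuclear receptor that induces beta-oxidation (-1.06, -1.74, -1.41 and -1.11). ACSL4 fell in 3 MM134 variants and both SUM44 variants (-3.27 ± 0.31 in LTED-A and -1.44 ± 0.23 in LTED-B in SUM44). Its call in SUM44 LTED-B was lost in 5 of 8 fits that left out 1 library (-1.496 to -1.37, adjusted p 0.00114 to 0.00407), and that in MM134 LTED-D in 3 of 15 (-0.69 to -0.59, adjusted p 0.00112 to 0.00185). ACSL5 fell in both SUM44 variants (-5.78 ± 0.44 in LTED-A and -5.12 ± 0.36 in LTED-B), from 7.73 to 17.03 CPM in SUM44F to 0.193 to 0.198 in LTED-A and 0.247 to 0.339 in LTED-B. PPARD and HMGCLL1 were downregulated and CRAT and PDK4 upregulated in 3 MM134 variants, with CRAT downregulated in the LTED-E variant (-0.68 ± 0.079). The calls for CRAT were lost in 3 of 15 such fits in LTED-D (0.53 to 0.58) and in 1 in LTED-E (-0.56). SLC27A4, a fatty acid transport protein, was upregulated in both SUM44 variants (0.59 ± 0.095 in LTED-A and 0.70 ± 0.087 in LTED-B), and its call in LTED-A was lost in 7 of 8 fits that left out 1 library (0.51 to 0.65, adjusted p 3.04e-04 to 0.00443). AMACR and ACACB were both more positive in MM134 than in SUM44 in the interaction (0.63 and 0.85), with AMACR below the 1.5-fold minimum in 1 of 23 such fits (0.54).

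Promoter letters were searched in the RefSeq windows of 250 bases before to 50 after each start (GRCh38.p14), which were given for 25 of the 32 members and 21 of the 27 other genes. Searched on both strands, the element of estrogen-related receptors (TCAAGGTCA) was found in 0 members and in 0.432% of all 27305 genes with a window, the core of the sterol regulatory element (TCACCCCAC) in 0 members and 0.535% of all genes, the PPAR element (AGGTCANAGGTCA) in 0 members and 0.0293%, and the estrogen response element (GGTCANNNTGACC) in 0 members and 0.0732%. Among the other pathway genes, the sterol element core was found for ACSL1 and ACSL6. The first and the third of these motifs share the letters AGGTCA. The absence of a match says only that these letters are not in these windows.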

How the data were processed

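RNA was sequenced from 27 libraries of MM134 and SUM44 cells (TruSeq Stranded Total RNA). The authors deposited estimated counts per gene, made with Salmon 0.6.0 on hg38 with Ensembl release 82. Whether strand was used in counting is not given in the sources used here. Salmon divides reads shared between overlapping genes by estimation, so such genes are less certain. The overlaps of some members are not named here.

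Estimated counts were rounded, and SUM44 LTED-A replicates 2 and 3 were averaged. Tests used edgeR 4.0.16 in R 4.3.3 (filterByExpr, TMM, quasi-likelihood test, Benjamini-Hochberg adjustment over all genes tested), fitted for MM134, for SUM44F with its LTED variants, for these with SUM44PE, and for both lines. The tests were checked on simulated counts with known changes. DESeq2 1.42.0 and the other alternatives are described in the closing section. Library totals of 28583554 to 134882175 counts set the precision. Values in every library are given for members called alike in both SUM44 variants or in 3 or 4 of the MM134 ones, or in the interaction, and for CPT1A, PPARGC1A, ACAT1, BDH1 and OXCT1, and other pathway genes are named under the same conditions, apart from some that are not reported here. The members and lists were chosen with earlier results of these data known.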

Additional observations from a re-analysis of the deposited data

Results flagged for a closer look

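The change in LTED differed between MM134 and SUM44 for 16 of the 32 genes by the interaction term of the edgeR fit to both lines (the average over the MM134 variants less the average over the SUM44 variants, as log2 values, with fold above 1.5 and adjusted p below 0.001). The difference was positive for PPARGC1A (1.99), DECR1 (1.73), HADHB (1.40), ETFDH (1.39), ETFB (0.96), ACADM (0.88), ACADS (0.80), BDH1 (0.73), ACAD10 (0.70), ACADVL (0.70), BDH2 (0.61) and EHHADH (0.59). It was negative for ACOX2 (-2.57), OXCT1 (-1.40), ACAD11 (-0.93) and HADH (-0.62). For ACADS, ACAD10 and BDH2 the mean log2 fold change was negative in both lines. The HADH difference was below the 1.5-fold minimum without SUM44F replicate 3 (-0.52). A mean over the variants of a line hides differences among them, and among the MM134 variants ACADS, ACAD11, HADHB, ETFDH, ACOX2, OXCT1 and PPARGC1A also differed. ETFB was called in the interaction although it was called in no single variant. The SUM44 average was taken against SUM44F alone, and OXCT1, PPARGC1A and DECR1 also differed between SUM44PE and SUM44F.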

How the results depend on the processing

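No called direction was reversed under the alternatives run for the 19 members that met the conditions for values in every library. This was scored in the comparisons of LTED variants with parental cells and in the interaction. The alternatives were RLE size factors, DESeq2, no filter on low counts, no fold change minimum and an adjusted p threshold of 0.05. Libraries were also thinned to the smallest total, and the replicate block was used. In further fits SUM44 LTED-A replicates 2 and 3 were kept apart, SUM44PE was added, or each library was left out in turn. Without a fold change minimum the number of members called was 24 in MM134 LTED-A, 18 in LTED-B, 22 in LTED-D, 21 in LTED-E, 27 among the variants, 20 in at least 3 variants and 5 in SUM44PE against SUM44F, where between 7.56% and 42.2% of all genes were called. With 1 library left out, the counts ranged from 7 to 9 in MM134 LTED-E, 10 to 11 in LTED-D, 7 to 9 in LTED-B, 12 to 13 in LTED-A, 9 to 10 in SUM44 LTED-A, 8 to 11 in LTED-B, 4 to 8 between the SUM44 variants, 2 to 4 in SUM44PE against SUM44F, 14 to 17 in the interaction, 16 to 17 between parental cells, 6 to 7 in at least 3 MM134 variants and 6 to 7 in both SUM44 variants, and stayed at 9 among the MM134 variants. The other 271 recomputed counts stayed within 1.5 times those reported. Single fold changes were scored for these members and for the other pathway genes that met the same conditions. Of them, 4984 kept their side of the thresholds, 83 lost a call and 60 gained one. Of the calls gained, 35 came with no fold change minimum and 6 with the adjusted p threshold of 0.05. Both of these settings loosen the rule for a call. Another 7 of the fold changes scored changed sign without a call, by more than the standard error of the reported value. The cause was not tested. ACADVL in LTED-B also fell just short of the fold minimum with RLE size factors (0.58).

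Replicate numbers did not pair the libraries: deviations of same-numbered libraries from their group means correlated between -0.0656 and 0.0515 in MM134 and between -0.096 and 0.153 in SUM44. With the replicate block, 13, 8, 10 and 7 members were called in MM134 variants A, B, D and E, 9 and 10 in SUM44 LTED-A and LTED-B, 6 between the SUM44 variants, 3 in SUM44PE, 16 in the interaction and 16 between parental cells.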

Other observations

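OXCT1-AS1, annotated on the strand opposite to OXCT1, was measured at 0.632 to 0.785 CPM in MM134 parental cells, between 0.598 and 0.748 in MM134 LTED-A, between 0.0697 and 0.125 in LTED-B, between 0.467 and 0.552 in LTED-D, between 0.498 and 0.682 in LTED-E, 0.101 to 0.118 in SUM44F, 0.149 to 0.330 in SUM44PE, 0.249 to 0.404 in SUM44 LTED-A and 0 to 0.0252 in SUM44 LTED-B. Since the strand setting of the counting is not given in the sources used here, reads of the pair cannot be told apart. OXCT1-AS1 was looked at after the values of OXCT1 were seen.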
